A study of Mus musculus with 16 samples.

Results

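The genes described here were the 7 that encode the inhibitors of cyclin-dependent kinases (CDKs), chosen by gene symbol from 47729 genes with values: Cdkn1a (p21), Cdkn1b (p27Kip1) and Cdkn1c (p57Kip2) of the CIP/KIP family, and Cdkn2a (p16Ink4a and Arf), Cdkn2b (p15), Cdkn2c (p18) and Cdkn2d (p19) of the INK4 family. RNA sequencing of cochleae at postnatal day 4 gave 16 libraries, with 4 replicates of control and 4 of DTR, each as input and as IP. All mice carried 1 copy of GLAST-CreERT, a tamoxifen-inducible Cre named after GLAST (Slc1a3). They also carried 1 copy of RiboTag, an HA tag on the ribosomal protein Rpl22 that Cre switches on. DTR mice carried in addition the diphtheria toxin receptor in 1 copy of Lgr5, so that toxin kills Lgr5+ supporting cells. According to the methods of the study both genotypes received toxin and tamoxifen, while the sample labels call the control pools untreated. Each replicate was a pool of cochleae from several mice, and from every homogenate 5% served as input and 95% went to immunoprecipitation (IP) of HA-tagged ribosomes, so that IP libraries were meant to hold the RNA bound by ribosomes of GLAST-Cre+ cells, mainly the greater epithelial ridge (GER) and inner phalangeal cells.

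Cells pass from growth into DNA replication when cyclin D with Cdk4 or Cdk6, and then cyclin E or A with Cdk2, phosphorylate the retinoblastoma (Rb) proteins and free the E2F factors. INK4 proteins bind Cdk4 and Cdk6 alone, whereas CIP/KIP proteins bind cyclin-CDK complexes more broadly and block Cdk2 in particular. In the cochlea p27Kip1 appears in the prosensory domain as its cells leave the cell cycle and is kept by supporting cells after birth, and p19 and p21 are known from hair cells that stay postmitotic.

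Counted reads ranged from 28089836 to 41966310 per library, and 3 reads, the limit that a count of 0 allows, corresponded to 0.0715 to 0.107 CPM (reads per 1000000 counted on genes). LFC is the difference of mean log2 quantile-normalized CPM with 0.5 added, "passed" means an adjusted p under 0.05 by limma over 16994 tested genes, and spreads of CPM are SD over 4 libraries. Statements that the libraries of groups lie apart or do not overlap describe single genes only. The share of all tested genes without such overlap is not given here. The labelled tissue held its markers: Sox2, a supporting cell factor, stood at 69.9 ± 4.41 CPM in control input. Slc1a3, the gene that drives Cre, was at 281 CPM in control input and 236 CPM in control IP (LFC -0.20, adjusted p = 0.10), and in DTR it was lower in IP than in input (LFC -0.27, adjusted p = 0.030), so its own RNA was higher in neither IP. All 10 hair cell markers and all 9 macrophage markers were lower in IP than in input in both genotypes. Of all tested genes 20.7% were lower in control and 20.5% in DTR. None of these markers was absent, as the summed macrophage markers still reached 20.7 to 30.6 CPM in control IP. The 10 mesenchyme markers summed to 11302 to 11872 CPM in control input and 9067 to 10101 CPM in control IP. In DTR they summed to 11287 to 14290 CPM in input and 11785 to 15506 CPM in IP. Of them, 5 were lower and 0 higher in control IP than in input, and 2 lower and 1 higher in DTR IP. Atoh1, a hair cell factor outside the list of 10 hair cell markers, passed as higher in IP in control (12.6 against 6.77 CPM) and in DTR (6.70 against 3.12 CPM). In these bulk libraries fewer cells of a type and less RNA per cell cannot be told apart.

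The genes lie on 5 chromosomes (GRCm38). Cdkn1a is at chr17:29090976-29100727 on the plus strand, Cdkn1b at chr6:134920401-134925513 on the plus strand and Cdkn1c at chr7:143458339-143461050 on the minus strand, within an imprinted cluster. Cdkn2a (chr4:89274471-89294653) and Cdkn2b (chr4:89306299-89311039) are neighbours on the minus strand, Cdkn2c (chr4:109660876-109667189) lies on the same chromosome and strand, and Cdkn2d is at chr9:21288410-21291407 on the minus strand. An unclassified transcript, AC167363.2, overlaps Cdkn1a and the antisense gene Gm44732 overlaps Cdkn1c, both on the opposite strand, and as the strand setting of the counting is not given in the sources used here, reads of each pair cannot be told apart. For 6 of the 7 genes (all but Cdkn1c) the RefSeq promoter table (GRCm38.p6) held a start. The 250 bases before the start are shown for Cdkn1b, which fell after damage, and for the upstream start of Cdkn1a, which rose. Capitals mark the GC box GGGCGG, the CCAAT box and the repeat of ACATGT, any 4 bases and ACATGT, a form of the response element known for p53, each searched on both strands and without overlap.
Cdkn1b, chr6:134920151-134920400, plus strand: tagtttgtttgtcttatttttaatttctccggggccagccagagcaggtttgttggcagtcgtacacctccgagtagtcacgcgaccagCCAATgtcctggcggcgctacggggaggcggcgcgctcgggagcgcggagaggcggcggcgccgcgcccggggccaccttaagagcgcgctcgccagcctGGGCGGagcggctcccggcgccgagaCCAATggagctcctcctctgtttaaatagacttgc
Cdkn1a, upstream start, chr17:29090729-29090978, plus strand: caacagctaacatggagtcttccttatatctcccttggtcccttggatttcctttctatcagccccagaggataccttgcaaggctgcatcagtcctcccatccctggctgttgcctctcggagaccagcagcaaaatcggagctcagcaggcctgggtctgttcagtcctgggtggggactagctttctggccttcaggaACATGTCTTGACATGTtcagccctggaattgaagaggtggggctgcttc

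The Cdkn1b window held 1 GC box beginning at position -61 from the start and CCAAT boxes at -161 and -35, whereas the upstream Cdkn1a window held neither. A GC box was present in 32.7% and a CCAAT box in 33.9% of 32841 RefSeq windows of the same length. The p53-type repeat began at position -49 of the Cdkn1a window, and 4 of the 32841 windows (0.0122%) held these exact letters. Other spellings of the element were not searched, so that share does not give how common p53 elements are. The second annotated start of Cdkn1a had 2 GC boxes and no match to the p53-type repeat. The first start of Cdkn2c and the start of Cdkn2d had 3 GC boxes each, the upstream start of Cdkn2a had 2, and Cdkn2b had none. The E2F-type letters TTTGGCGC (0.417% of windows) and TTTCGCGC (0.256%), CACGTG (6.02%) and the FOXO-type GTAAACA (3.17%) had no match in any of the 9 windows of these genes.

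Of the 7 inhibitors Cdkn1b fell after damage, Cdkn1a and Cdkn1c rose, and no tested INK4 gene passed between DTR and control, although Cdkn2b in IP did under 5 of 19 alternatives. In all, 6 of the 7 genes passed the low-value filter and were tested. In control IP against control input 2 were higher (Cdkn1a, Cdkn1b) and 2 lower (Cdkn2c, Cdkn2d), that is 4 of 6 against 39.9% of all tested genes (19.3% higher, 20.7% lower). In DTR IP against DTR input 3 were higher (Cdkn1a, Cdkn1b, Cdkn2b) and 2 lower (Cdkn2c, Cdkn2d), against 39.2% of all tested genes (18.6% higher, 20.5% lower). In DTR IP against control IP 2 rose (Cdkn1a, Cdkn1c) and 1 fell (Cdkn1b), against 15.7% of all tested genes (8.44% higher, 7.30% lower), and the same 3 genes passed in input in the same directions, against 12.4% (7.17% higher, 5.21% lower). Median LFC over the 6 were 0.0052, 0.32, 0.34 and 0.18 in these comparisons, beside -0.0012, -0.027, -0.0043 and -0.021 over all tested genes. The comparisons share libraries or pools, so that their counts are not independent. The difference between the damage changes in IP and input passed for 0 of the 6 by limma (0 also by edgeR and by DESeq2, and 1, Cdkn1c, at an unadjusted p under 0.05), against 0.0118% of all tested genes.

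The study set stricter limits for a change after damage, an absolute LFC of at least 1 with a separation above 1.5, where separation is the lowest value of the higher group over the highest of the lower group. Cdkn1b in input was the only inhibitor to meet them (separation 1.66), that is 1 of 6 against 2.34% of all tested genes in either direction. In IP Cdkn1b came short in both (LFC -0.96, separation 1.23), and 0 of the 6 met them, against 2.47% of all tested genes in either direction. No inhibitor reached an LFC of 2, the study's limit for enrichment, in control IP or DTR IP, whereas 0.800% and 0.747% of all tested genes passed with at least that LFC. The study set its damage limits for the IP samples. Its cluster analysis had a looser rule, a fold change above 1.5 with groups fully apart after another normalization. There the study lists Cdkn1b as lower after damage. It also names Cdkn1b among enriched genes that it measured by nCounter, another RNA assay.

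Cdkn1b, whose product p27Kip1 holds supporting cells out of the cell cycle, was the inhibitor with the largest LFC in all 4 comparisons of groups. In control input it measured 24.3, 36.1, 26.2 and 29.8 CPM in replicates 1 to 4. In DTR input it measured 11.8, 14.9, 11.5 and 12.3 CPM, each library below the lowest control input. Control IP held 87.8, 102.9, 69.5 and 58.2 CPM, and DTR IP 31.6, 51.2, 48.4 and 36.7 CPM, again without overlap. Thus Cdkn1b was enriched in the IP of both genotypes and lower after damage in both fractions. The LFC of control IP against control input was 1.41 ± 0.18 (SE, adjusted p = 5.8e-06), and that of DTR IP against DTR input was 1.66 ± 0.18 (adjusted p = 1.1e-06). After damage Cdkn1b fell by 1.21 on the log2 scale in input (SE 0.18, adjusted p = 0.00011) and by 0.96 in IP (SE 0.18, adjusted p = 0.00096), and it was lower in 4 of 4 same-numbered pairs in each fraction. In CPM the control mean was 2.30 times the DTR mean in input and 1.90 times in IP. The falls in IP and input differed by 0.25 (95% interval -0.28 to 0.78, adjusted p = 0.999), so a difference between the fractions was not detected.

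**Figure D1:**
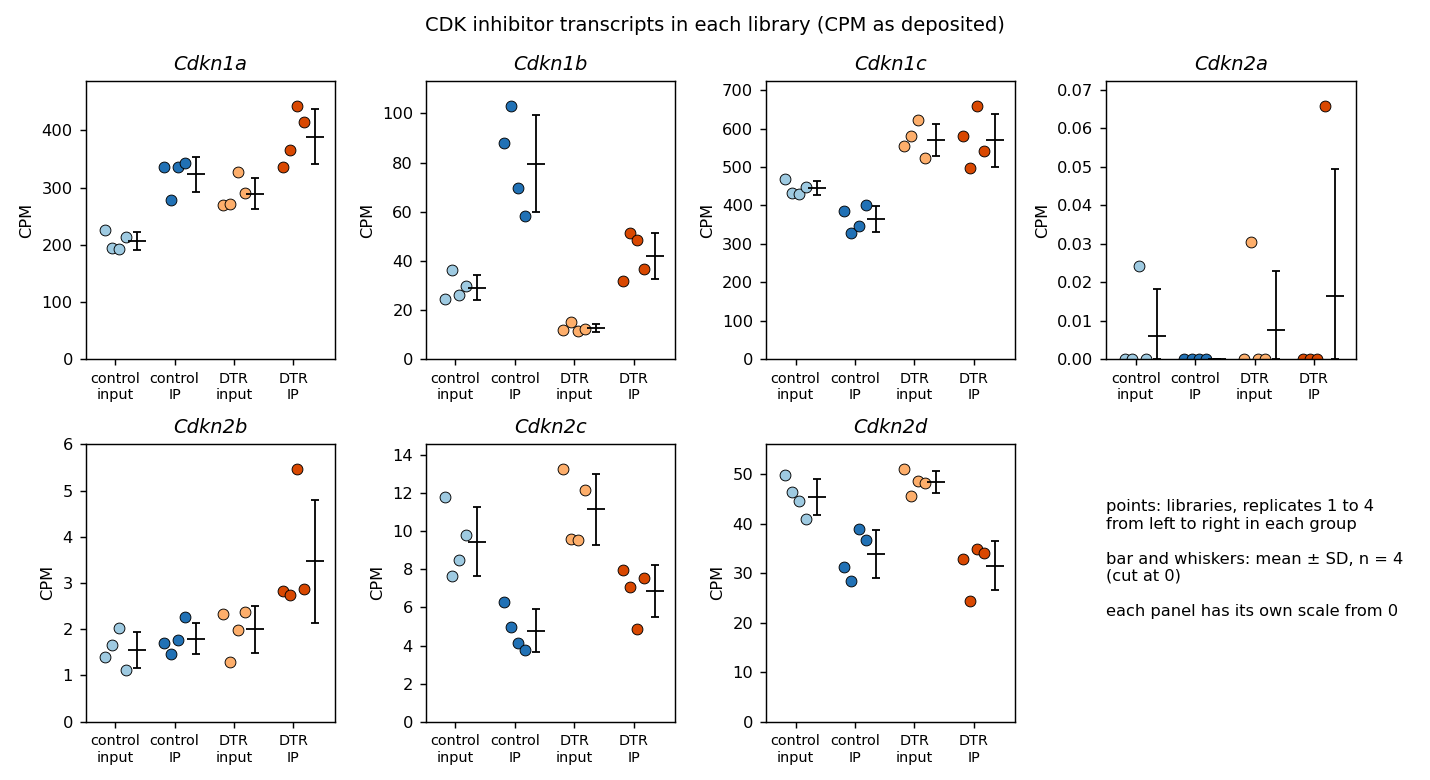
CPM of each of the 7 genes (vertical axis, its own scale from 0 in every panel) in the 16 libraries, by group on the horizontal axis; points are replicates 1 to 4 from left to right, and the bar with whiskers is the mean ± SD (n = 4, cut at 0). Cdkn1b stood lowest in DTR input (11.5 to 14.9 CPM) and highest in control IP (58.2 to 102.9 CPM), while Cdkn1c stood lowest in control IP and Cdkn2a had 1 or 2 reads in 3 libraries.

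Most supporting cell and GER markers moved the same way as Cdkn1b, while Slc1a3 (GLAST) itself did not pass after damage (LFC -0.11, adjusted p = 0.50 in IP; LFC -0.04, adjusted p = 0.86 in input). Lgr5, the gene that carries the toxin receptor, fell from 63.3 to 15.9 CPM in input (adjusted p = 2.2e-08) and from 36.6 to 9.38 CPM in IP (LFC -1.93, adjusted p = 3.5e-08). Of 14 supporting cell and GER markers, 11 fell and 0 rose in input, and 12 fell and 0 rose in IP, with median LFC of -1.10 and -1.41, where 5.21% and 7.30% of all tested genes fell. Their summed level went from between 5726 and 6772 CPM in control IP to between 3404 and 3949 CPM in DTR IP, and from between 5732 and 6163 CPM to between 4314 and 4854 CPM in input. Of these markers only Hes5 was under 1 CPM throughout a group (DTR input). Schwann cell markers fell as well, 5 of 6 in input, from a sum of 2438 to 4203 CPM in control to 1205 to 1901 CPM in DTR, and 1 of 6 in IP. The part of these cell types in the fall of Cdkn1b was not tested. The 3 genes whose levels were most like those of Cdkn1b over the 16 libraries were Sowaha (Pearson r = 0.96), Tmem86a (0.96) and Adamts5 (0.96), the last encoding a protease of the extracellular matrix, and all 3 were, like it, highest in control IP and lowest in DTR input. These likenesses are descriptions, as the libraries share pools and groups.

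Cdkn1a, the p53-induced inhibitor p21, was higher in IP and rose after damage in input. It measured 225, 195, 192 and 213 CPM in control input against 269, 271, 327 and 291 CPM in DTR input, with no overlap. In IP the values were 337, 277, 336 and 344 CPM in control and 335, 365, 442 and 414 CPM in DTR, where the lowest DTR library lay within the control range. Enrichment in the IP had an LFC of 0.69 ± 0.11 in control (adjusted p = 4.3e-05) and 0.53 ± 0.11 in DTR (adjusted p = 0.00063). The damage LFC was 0.48 ± 0.11 in input (adjusted p = 0.0044). In IP it was 0.32 ± 0.11 and only just passed (adjusted p = 0.048), with 3 of 4 same-numbered pairs higher in DTR. That call was lost in 12 of 19 alternatives, among them CPM without quantile normalization (adjusted p = 0.11), centring on the median (0.28), no low-value filter (0.082), a fit of the IP libraries alone (0.14), edgeR (0.31) and DESeq2 (0.33), and without any 1 of control IP replicates 1, 2, 3 and 4 or DTR IP replicates 3 and 4 (0.051 to 0.14).

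Other genes known to be induced by p53 rose beside Cdkn1a. Of 20 such targets, 12 rose and 0 fell in input, against 7.17% and 5.21% of all tested genes, and 11 rose and 1 fell in IP, against 8.44% and 7.30%, where the median LFC of the list was 0.53 against -0.0043 over all tested genes. Eda2r, a receptor of the TNF receptor family, went from 0.346 to 28.8 CPM in input (LFC 5.06, adjusted p = 9.1e-11) and from 0.75 to 38.2 CPM in IP (LFC 4.82, adjusted p = 2.1e-10). Gdf15, a stress-induced secreted factor, rose from 0.231 to 2.38 CPM in IP (LFC 1.86, adjusted p = 6.2e-06). Mdm2, the ubiquitin ligase that restrains p53, rose as well (LFC 0.64, adjusted p = 0.0016 in input; LFC 0.51, adjusted p = 0.0092 in IP). The member that fell in IP was Btg2, an antiproliferative gene (449 to 251 CPM, LFC -0.80, adjusted p = 0.0072), and it was also the target with the largest enrichment in control IP (LFC 2.24, adjusted p = 5.6e-08), followed by Sesn2 (LFC 1.66, adjusted p = 5e-08). Trp53 itself, which encodes p53, was higher in DTR input (115 against 67.3 CPM, LFC 0.76, adjusted p = 0.00041) and DTR IP (96.4 against 64.5 CPM, LFC 0.57, adjusted p = 0.0043). The part of p53 in the rise of Cdkn1a and of these genes was not tested. The gene most like Cdkn1a over the 16 libraries was Trp53cor1 (r = 0.97), a noncoding RNA from the same chromosome region, which in control had 2.04 CPM in input and 5.46 in IP, and in DTR 6.13 and 11.2. It was followed by Hbegf (r = 0.97), a growth factor gene, and Ndp (r = 0.96), which encodes the Frizzled ligand norrin.

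Cdkn1c, the maternally expressed p57Kip2, rose after damage in both fractions. Control input held 469, 432, 430 and 447 CPM and DTR input 554, 580, 621 and 524 CPM. Control IP held 385, 328, 346 and 401 CPM and DTR IP 580, 497, 658 and 542 CPM. In both fractions each DTR library exceeded every control library. The damage LFC was 0.72 ± 0.10 in IP (adjusted p = 6.9e-05) and 0.40 ± 0.10 in input (adjusted p = 0.015, and 0.070 with centring on the library median). The difference between the rises in IP and input was 0.32 (95% interval 0.013 to 0.63, unadjusted p = 0.042, adjusted p = 0.95), which did not pass. Between IP and input Cdkn1c did not pass in either genotype: LFC -0.22 ± 0.10 in control (adjusted p = 0.10) and 0.10 ± 0.10 in DTR (adjusted p = 0.47), the latter turning negative under 4 alternatives. In control the lower IP level did pass without quantile normalization (adjusted p = 0.030) and after correction for gene length (adjusted p = 0.0079). Of its 7 tested neighbours in the imprinted cluster 0 rose and 1 fell in DTR IP, namely Nap1l4, a histone chaperone gene (LFC -0.49, adjusted p = 0.0083), and 0 passed in input, beside the 7.30% of all tested genes that fell in IP. Kcnq1ot1, the paternal noncoding RNA that silences Cdkn1c in cis, had an IP level of 114 CPM in control and 157 CPM in DTR (LFC 0.52, adjusted p = 0.36), and Phlda2 stayed under the low-value filter with group means of 0.54 to 0.782 CPM. In both genotypes Kcnq1ot1 passed as higher in IP than in input and the neighbour Kcnq1 as lower. Over the main fit and 19 alternatives the control LFC ran from 1.20 to 1.85 for Kcnq1ot1 and from -0.91 to -0.61 for Kcnq1. Closest to Cdkn1c over the libraries were Wnt10a (r = 0.95), Fermt2 (0.93) and the condensin gene Smc4 (0.93), and Smc4 rose from 19.6 to 63.8 CPM in IP. Wnt10a was near or under the limit of detection in control, with means of 0.0984 CPM in input and 0.0073 CPM in IP. In DTR it had 0.755 and 0.992 CPM, so its r rests on very low values.

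**Figure D2:**
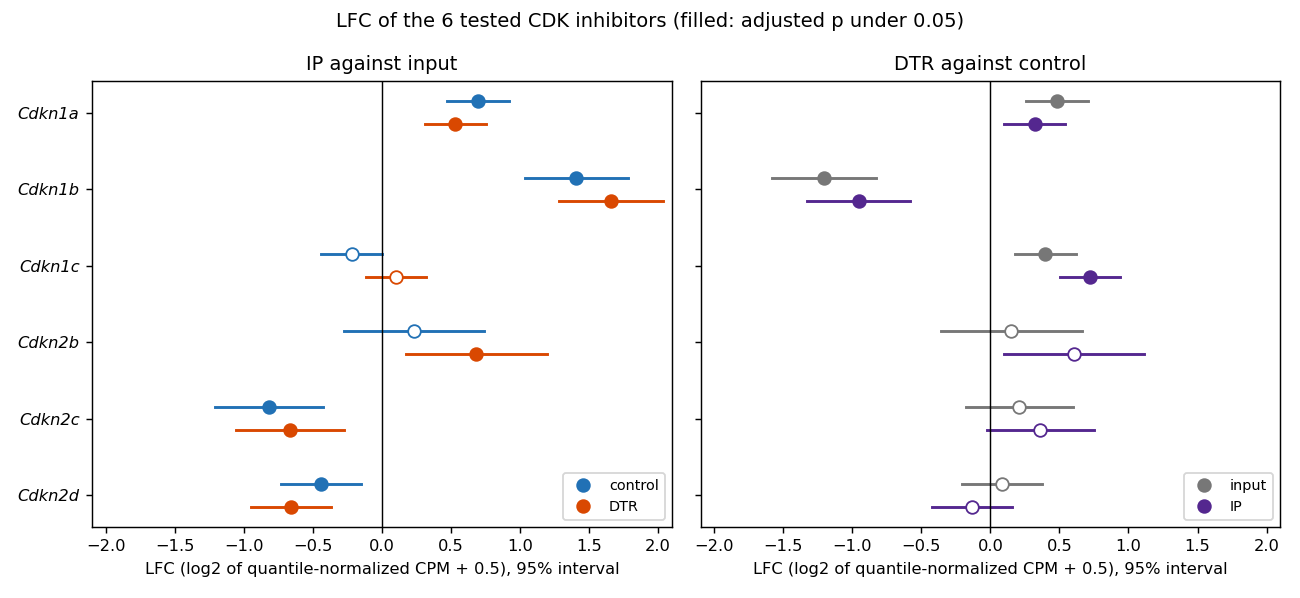
LFC (horizontal axis, log2 of quantile-normalized CPM + 0.5) with 95% interval for the 6 tested inhibitors, IP against input in control and DTR on the left and DTR against control in input and IP on the right; filled points have an adjusted p under 0.05. Cdkn1b lies farthest from 0 on both sides, to the right for IP against input (1.41 and 1.66) and to the left for damage (-1.21 and -0.96), while Cdkn1c and Cdkn1a lie to the right for damage.

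Within the INK4 family, Cdkn2d and Cdkn2c had lower levels in IP than in input, and none of the 3 tested members passed after damage in the fit used here. Cdkn2d (p19), known from hair cells and neurons, measured 49.8, 46.5, 44.5 and 41.1 CPM in control input and 31.2, 28.5, 39.0 and 36.7 CPM in control IP (LFC -0.44 ± 0.14, adjusted p = 0.016). In DTR it measured 51.1, 45.7, 48.8 and 48.2 CPM in input and 32.8, 24.3, 34.9 and 34.2 CPM in IP (LFC -0.66 ± 0.14, adjusted p = 0.00097). Input and IP did not overlap in either genotype, although the control call was lost without control input replicate 1, control IP replicate 1 or control IP replicate 2 (adjusted p 0.052 to 0.066). Damage LFC were 0.08 in input (95% interval -0.21 to 0.37) and -0.14 in IP (-0.42 to 0.15). The 10 hair cell markers summed to 721 to 945 CPM in control input and 213 to 299 CPM in control IP, and the 6 neuron markers to 333 to 808 and 171 to 379 CPM. The part of these cells in the lower IP level of Cdkn2d was not tested. The genes most like it were Hspb1, a small heat shock protein (r = 0.95), Gde1 (0.94) and Decr2 (0.93).

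Cdkn2c (p18) was likewise lower in IP than in input. Control input held 11.8, 7.66, 8.49 and 9.78 CPM and control IP 6.28, 4.95, 4.11 and 3.76 CPM (LFC -0.82 ± 0.18, adjusted p = 0.0016). DTR input held 13.3, 9.61, 9.55 and 12.2 CPM and DTR IP 7.97, 7.05, 4.87 and 7.56 CPM (LFC -0.67 ± 0.18, adjusted p = 0.0079). Input stood above IP without overlap in both genotypes, and the damage LFC of 0.36 in IP (95% interval -0.027 to 0.75, adjusted p = 0.21) and 0.21 in input (-0.18 to 0.60, adjusted p = 0.57) did not pass. Its closest gene was Chaf1a (r = 0.96), a subunit of the chromatin assembly factor that acts at replication forks, followed by Spon2 (0.95) and Gab2 (0.94).

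Cdkn2b (p15), a TGF-beta-induced inhibitor, was low throughout. It measured 1.41, 1.66, 2.03 and 1.11 CPM in control input, 1.70, 1.46, 1.76 and 2.26 CPM in control IP, and 2.33, 1.28, 1.99 and 2.38 CPM in DTR input. DTR IP held 2.83, 2.74, 5.47 and 2.86 CPM, each above every other library, with replicate 3 apart from the rest. DTR IP was higher than DTR input (LFC 0.68 ± 0.24, adjusted p = 0.032), but not without DTR IP replicate 3 (LFC 0.46, adjusted p = 0.13) or DTR input replicate 2 (LFC 0.53, adjusted p = 0.12), nor without the low-value filter (adjusted p = 0.096) or in a fit of DTR alone (0.061). Against control IP the LFC was 0.60 ± 0.24 (adjusted p = 0.10), which passed with the replicate number as a block (adjusted p = 0.045), without quantile normalization (0.029), with median centring (0.045), by edgeR (0.048) and by DESeq2 (0.031). The control LFC of IP against input was 0.23 (95% interval -0.28 to 0.74), and the damage LFC in input was 0.15 (-0.36 to 0.66).

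Cdkn2a was at or under the limit of detection. It had 0 reads in 13 of the 16 libraries, 1 read in control input replicate 3 (0.0242 CPM) and in DTR input replicate 2 (0.0305 CPM), and 2 reads in DTR IP replicate 4 (0.0658 CPM). It lay under the low-value filter and was not tested, and its p16Ink4a and Arf transcripts share a gene entry and were counted together.

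Per kilobase of merged exons, on which levels of different genes can be set side by side, the order in control input was Cdkn1c (218 CPM per kb), Cdkn1a (58.1), Cdkn2d (28.9), Cdkn1b (6.39), Cdkn2c (3.51), Cdkn2b (1.12) and Cdkn2a (0.00516). The order was the same in control IP and DTR IP, and in DTR input Cdkn2c (4.15 CPM per kb) stood above Cdkn1b (2.77). Neighbours in these orders were separate over all 4 libraries except Cdkn2d and Cdkn1b in control IP and Cdkn2c and Cdkn2b in both IP groups, which overlapped. The 7 genes summed to 316 ± 14.3 (input) and 312 ± 22.5 (IP) CPM per kb in control, and to 400.0 ± 24.6 (input) and 423 ± 45.3 (IP) in DTR. Cdkn1c made up 69.0% ± 0.45 of that sum in input and 57.3% ± 1.64 in IP of control, and 69.8% ± 1.47 and 66.0% ± 2.41 in DTR. Cdkn1b made up 5.68% ± 1.76 in control IP and 2.20% ± 0.56 in DTR IP, and only 0.696% ± 0.10 in DTR input. The order and the shares depend on the length used, since Cdkn1a has 477 and Cdkn1c 1080 coding bases. The study's methods speak of counting on coding regions, but 2432 of the tested genes have no coding sequence and still carry counts, so merged exons were used and coding length is given beside them. Per kilobase of coding sequence Cdkn1a had the higher mean in every group. It stood at 432 against 412 CPM per kb for Cdkn1c in control input and at 607 against 528 in DTR input, where their ranges overlapped, and at 678 against 338 in control IP and 816 against 527 in DTR IP, where they did not. On that length Cdkn1c made up 41.0% ± 0.51 (input) and 27.4% ± 1.32 (IP) of the sum in control, and 41.3% ± 1.68 (input) and 35.2% ± 2.74 (IP) in DTR. Cdkn1b then stood above Cdkn2d in control IP, while in DTR IP the ranges of Cdkn1b and Cdkn2d overlapped.

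**Figure D3:**
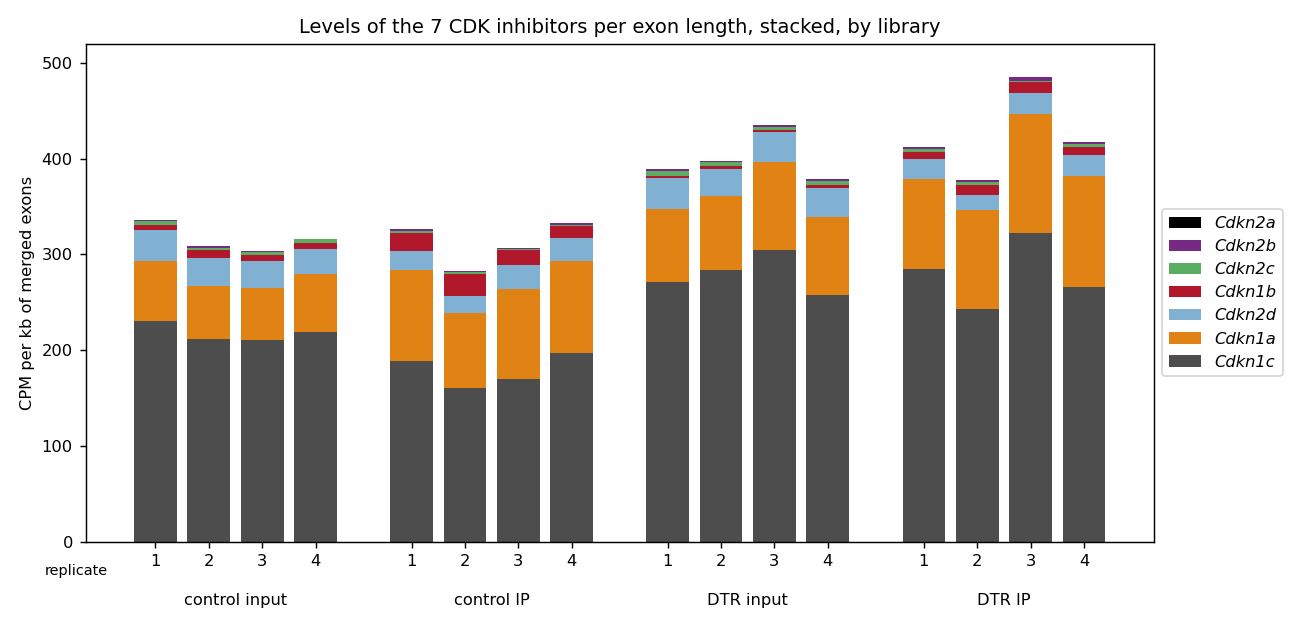
Stacked levels of the 7 inhibitors (vertical axis, CPM per kb of merged exons) in each library (horizontal axis, replicates 1 to 4 of each group). On this length Cdkn1c takes up most of every bar (57.3% on average in control IP, 69.8% in DTR input), whereas per kb of coding sequence its share would be 27.4% and 41.3%, the Cdkn1b layer is thickest in control IP and barely visible in DTR input, and the DTR bars are taller than the control bars.

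Among the kinases and cyclins that these proteins bind, the mitotic cyclin genes rose after damage. Of 12, 5 rose and 0 fell in DTR IP (median LFC 0.36), and the same counts held in input: Cdk1, Ccna2, Ccnb1, Ccnb2 and Ccnd2. Over all tested genes 8.44% rose and 7.30% fell in IP, and 7.17% rose and 5.21% fell in input. The mitotic cyclin gene Ccnb2 rose from 4.22 to 20.3 CPM in IP (LFC 2.01, adjusted p = 1.2e-07) and Ccnb1 from 7.84 to 27.5 CPM (LFC 1.64, adjusted p = 4.3e-05), although in control both were lower in IP than in input (LFC -1.41 and -1.21). The targets of INK4 proteins, Cdk4 and Cdk6, had IP levels of 322 and 31.0 CPM in control and 322 and 41.9 CPM in DTR (LFC 0.04 and 0.40, adjusted p = 0.83 and 0.10, the former turning negative under 5 alternatives). Cdk2 (LFC -0.24, adjusted p = 0.13) and Ccnd1 (LFC -0.24, adjusted p = 0.35) did not pass either. In control IP against input the largest enrichment among these genes was that of Ccnd3 (191 to 442 CPM, LFC 1.27, adjusted p = 4.6e-09).

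Among 11 Rb and E2F genes 1 rose and 0 fell in DTR IP (median LFC -0.060), a share near the 8.44% of all tested genes that rose. The 1 gene was E2f5, a repressor E2F that binds pocket proteins, with an IP level of 212 CPM in control and 319 CPM in DTR (LFC 0.62, adjusted p = 0.010). Its LFC in input was 1.42 (adjusted p = 3.3e-06), and there E2f7 also passed. E2f2 (LFC 2.22, adjusted p = 2.6e-07) and E2f5 (LFC 2.18, adjusted p = 6.3e-09) had the largest enrichment in control IP. Of 13 measured parts of the ubiquitin ligases that remove p27, p21 and p57, 1 rose and 1 fell after damage in each fraction (median LFC in IP 0.0049), near the share of all tested genes that passed (15.7% in IP, 12.4% in input). Dtl, the CRL4 receptor for p21, rose in IP (6.94 to 16.3 CPM, LFC 1.05, adjusted p = 0.00054), and Skp1a, an adaptor of SCF ligases, fell (2436 to 1263 CPM, LFC -0.84, adjusted p = 3.2e-05). Between IP and input, 2 of the 13 were higher and 8 lower in control IP (median LFC -0.61), against 19.3% and 20.7% of all tested genes. In DTR IP 1 was higher and 7 lower (median LFC -0.44), against 18.6% and 20.5%. Unlike most of this list, Skp2, the SCF receptor for p27, was enriched in control IP (11.1 to 43.4 CPM, LFC 1.89, adjusted p = 2e-07). After damage its IP level was 40.6 CPM (LFC -0.10, adjusted p = 0.78). Its cofactor Cks1b stood at 45.3 and 53.8 CPM in control and DTR IP (LFC 0.21, adjusted p = 0.22), and Ddb1 was lower in control IP than in input (LFC -1.08, adjusted p = 0.00011).

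Of 20 tested transcriptional regulators of the inhibitors, 2 rose (Trp53 and Klf6) and 1 fell (Atoh1) in DTR IP (median LFC 0.16), again near the 15.7% of all tested genes that passed. Klf6, a zinc finger activator of p21, rose from 51.8 to 108 CPM in IP (LFC 1.07, adjusted p = 1.5e-06). Atoh1, the hair cell factor, fell from 12.6 to 6.70 CPM (LFC -0.87, adjusted p = 0.020). The largest enrichments in control IP were those of Cbx7 (LFC 2.28, adjusted p = 1.3e-08), a Polycomb protein that represses the Cdkn2a locus, and Kdm6b (LFC 1.96, adjusted p = 6.3e-09), the histone demethylase that opposes it. Of the other 3 genes with a Cdkn symbol, Cdkn3, which encodes a phosphatase of Cdk2 and belongs to neither family, rose in DTR IP (1.17 to 3.33 CPM, LFC 1.06, adjusted p = 0.0024), as did Cdkn2aip (LFC 0.52, adjusted p = 0.017).

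Most genes of cell division rose after damage in IP. Of 24, 19 rose and 0 fell in DTR IP (median LFC 1.18) and 9 rose and 0 fell in DTR input (median 0.63). Among all tested genes 8.44% rose and 7.30% fell in IP, and 7.17% rose and 5.21% fell in input. In control, 16 of the 24 were lower and 1 was higher in IP than in input (median LFC -1.04), against 20.7% and 19.3% of all tested genes. Mki67, the proliferation marker Ki67, went from 12.1 to 32.1 CPM in IP (LFC 1.32, adjusted p = 2.8e-05) and from 8.32 to 13.7 CPM in input (LFC 0.70, adjusted p = 0.011). The summed level of the 24 genes was 230 to 295 CPM in control IP and 389 to 598 CPM in DTR IP. Macrophage markers rose in the same libraries, 6 of 9 in either fraction, from a sum of 20.7 to 30.6 CPM in control IP to 44.1 to 74.2 CPM in DTR IP, and 4 of 10 mesenchyme markers rose in IP. Of 6 endothelial markers 2 rose in IP and 1 in input, and their sum went from between 98.1 and 119 CPM in control IP to between 149 and 162 CPM in DTR IP, and from between 260.1 and 298 CPM to between 337 and 410.3 CPM in input. Their part in the changes of Cdkn1a, Cdkn1c and the division genes was not tested.

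**Figure D4:**
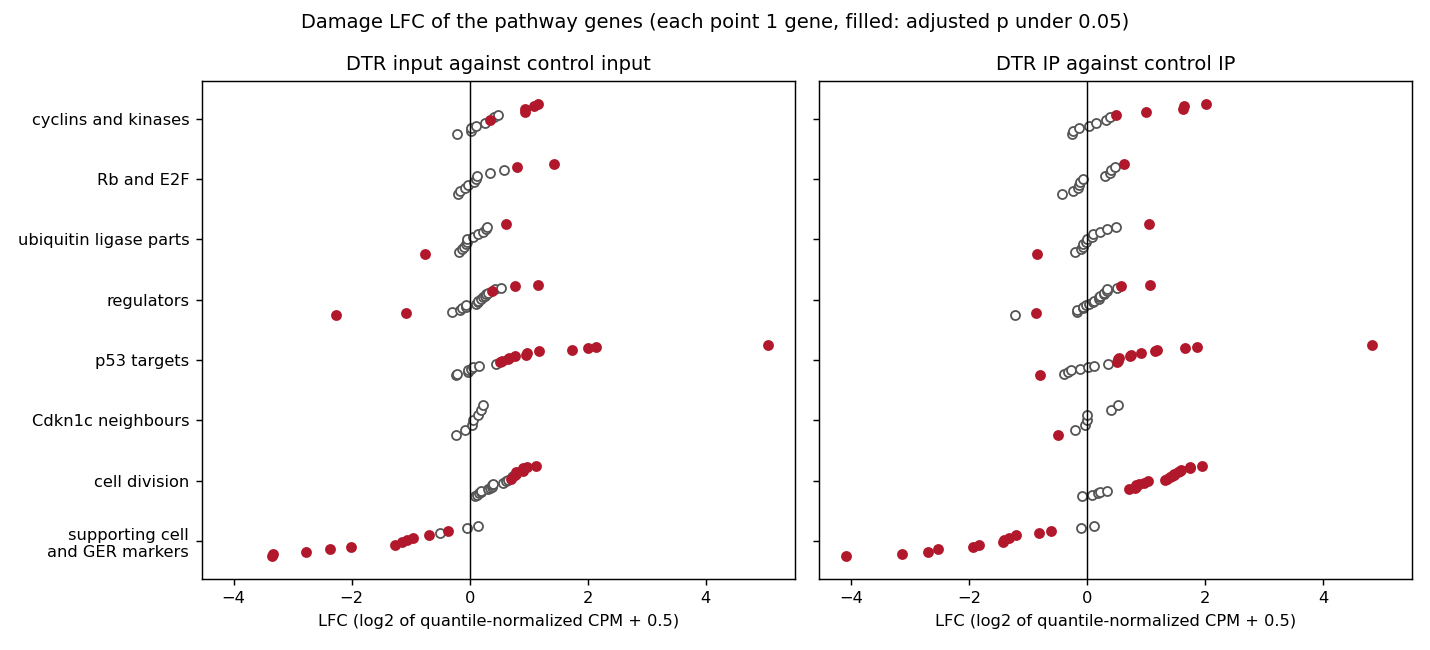
Damage LFC (horizontal axis, log2 of quantile-normalized CPM + 0.5) of the tested genes of 8 lists, 1 point a gene, in input on the left and IP on the right; filled points have an adjusted p under 0.05. In IP the filled points of cell division (19 of 24) and of p53 targets (11 of 20, with Eda2r at 4.82) lie to the right and those of supporting cell and GER markers (12 of 14) to the left, while few points of the Rb and E2F, ubiquitin ligase and Cdkn1c neighbour lists are filled.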

How the data were processed

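CPM per gene and library were deposited by the authors, one table for each of the 16 libraries. According to the study's methods reads were aligned to GRCm38 with HISAT2 and those on coding regions counted with HTSeq, while the submitters' processing notes name TopHat, and the annotation release and strand setting are not given in the sources used here. Each library summed to 1000000, and 100% of values were whole multiples of 1 read (within 0.02 reads), so counts could be recovered. Of 50316 genes listed, 2587 had no value and 173 no symbol. CPM were quantile normalized, 0.5 was added before log2, and genes that reached 0.5 CPM in every replicate (4 of 4) of some group were fitted with limma (version 3.58.1, R 4.3.3; 4 group means, mean-variance trend, two-sided, Benjamini-Hochberg over 16994 genes). The procedure was also run on simulated counts, but of independent libraries without shared pools. That run therefore does not test the fit for libraries that share a pool. The members and gene lists were chosen with earlier results of these data known. Named were the members, fixed key genes and, from each list, the 2 genes with the largest absolute LFC among those that passed in DTR IP against control IP and in control IP against control input, and the 3 genes most like each member by Pearson's r. Genes named outside this rule (Ccna2, Ccnd2, Cdk1, E2f7, Cdkn2aip and Hes5) belong to counts of 5 or fewer and were chosen after their values were seen.

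Input and IP of the same number come from the same pool. Deviations from the group means correlated for every same-numbered pair (minimum r 0.288 for control input with control IP, 0.312 for DTR input with DTR IP, 0.306 for control IP with DTR IP and 0.291 for the inputs). Different-numbered pairs had mean r of -0.125, -0.135, -0.129 and -0.119 in the same order. Deviations from a group mean sum to 0, which pushes these values below 0 once same-numbered pairs correlate. They are therefore no separate evidence for pairing. The maximum of different-numbered pairs for control input with control IP was 0.290, just above the same-numbered minimum. The numbers were taken to pair the samples, and the main fit has no block, as the study's methods name none. Counting intervals and limits cover counting error only, because amplified reads are not independent molecules. Alternatives were 2 scalings, pseudocounts of 0.1 and 1, 2 other filters, fits of the compared groups alone, a replicate block, edgeR (version 4.0.16) and DESeq2 (version 1.42.0) on recovered reads, each library left out, and, added after seeing the data, a gene length correction and coding length for the order and shares of levels. Lengths and positions came from GENCODE M21 and promoter sequences from RefSeq.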

Additional observations from a re-analysis of the deposited data

Results flagged for a closer look

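Within groups of 4 libraries, 5 values stood apart from the other 3 by more than Dixon's 95% limit, of 27 groups with a spread among the 7 genes, and chance passes that limit in about 1 in 20 groups. Cdkn1a in control IP was lowest in replicate 2 (277 CPM, against 336 to 344 CPM in the others, gap 0.886 of the range), and the LFC of DTR IP against control IP was 0.26 (adjusted p = 0.14) without that library. Cdkn2b in DTR IP was highest in replicate 3 (5.47 CPM, against 2.74 to 2.86 CPM, gap 0.956 of the range). Cdkn2a stood apart in control input replicate 3 (0.0242 CPM), DTR input replicate 2 (0.0305 CPM) and DTR IP replicate 4 (0.0658 CPM) because the other 3 libraries of each group had 0 reads.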

How the results depend on the processing

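The counts of inhibitors that passed stayed within 1.5 times the main count under all alternatives run (19 for each comparison of groups and 26 for the difference of the damage changes), among which leaving out 1 library gave 3 to 4 for control IP against control input, 4 to 5 for DTR IP against DTR input, 2 to 3 for DTR IP against control IP, 3 for the inputs and 0 for the difference of the damage changes. Of 30 results for single inhibitors, 23 kept direction and call under every alternative run, among them all those of Cdkn1b. The LFC of Cdkn1c in DTR IP against DTR input was -0.0062 without quantile normalization, -0.043 with median centring, -0.010 with edgeR and -0.0051 with DESeq2. Others that turned, none of them passing, were Cks1b in control IP against input (0.0073, 0.00070, 0.066 and 0.046 in the same order, and -0.041 to 0.035 without 1 library), Cdk4 in DTR IP against control IP (-0.043 with median centring, -0.078 with edgeR and -0.077 with DESeq2, and -0.020 to 0.12 without 1 library), and, without 1 library, Skp2 in DTR IP against control IP (-0.28 to 0.015) and Trp53 (-0.19 to 0.0061) and Mdm2 (-0.15 to 0.0050) in control IP against input. The cause was not tested. With the replicate number as a block, Cdkn2b in DTR IP against control IP passed (adjusted p = 0.045, as with CPM without quantile normalization at 0.029, median centring at 0.045, edgeR at 0.048 and DESeq2 at 0.031), and the block changed no other call of an inhibitor. With the block, calls over all genes for the difference of the damage changes numbered 40 in place of 2, and with DESeq2 49. The share of Cdkn1c in the summed level was 27.4% to 41.3% per kilobase of coding sequence, against 57.3% to 69.8% per kilobase of merged exons. Per kilobase of the longest transcript the order of levels was unchanged in all 4 groups.

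Counts of 1 to 2 reads for Cdkn2a cannot show a difference, and Cdkn2b at 1.11 to 5.47 CPM rests on 42 to 165 reads per library. p-values measure the spread between libraries within groups, estimated over all 4 groups together. As input and IP of a number share a pool, the libraries are not all independent.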
